A study of Homo sapiens with 6 samples.

Results

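Proteasome genes were examined in mRNA-seq data of Kasumi-1 cells incubated with or without I3. The set was chosen by symbol: every protein-coding gene of the deposited table whose symbol starts with PSMA, PSMB, PSMC, PSMD, PSME, PSMF or PSMG followed by a digit, without the immunoproteasome genes PSMB8, PSMB9 and PSMB10. This rule found 46 genes among 29810 in the table, of which 15616 were protein-coding. They comprised 7 genes of the alpha ring and 8 of the beta ring of the 20S core, 6 ATPases of the 19S base, 14 non-ATPase subunits or base chaperones of the 19S particle, 5 activators or inhibitors and 4 chaperones of 20S assembly. The symbols also caught PSMC3IP, a meiotic recombination factor, and PSME3IP1, a nuclear protein that interacts with the activator PSME3, which are not parts of the proteasome and left 44 genes without them. PSMA8, the alpha subunit of the testis form, was not analysed here. PSME3IP1 has the name FAM192A in the annotation used.

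Kasumi-1 is a human cell line of acute myeloid leukemia with the RUNX1-RUNX1T1 fusion gene. I3 is an inhibitor of histone deacetylases, and the comparison asked which transcripts differed after treatment. There were 3 control libraries, from cells given the DMSO vehicle, and 3 libraries from cells incubated with 0.25 μM I3 for 48 h, all of 1 cell line. The time is that of the labels and the methods, while a figure legend of the study gives a longer one. Nothing in the labels says whether the 3 libraries of a group came from separate cultures, so the p-values measure only the spread between these libraries, which may be technical.

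The proteasome degrades proteins that carry ubiquitin chains, and cells rely on it for protein quality control, the cell cycle and the turnover of regulators. The 20S core is a barrel of stacked alpha and beta rings with the proteolytic sites on the inner face of the beta rings, and the 19S particle binds the ubiquitylated substrate, removes its ubiquitin, unfolds it and threads it into the barrel. The genes are known as a co-regulated set that the transcription factor NFE2L1 raises when proteasome activity falls short, and proteasome inhibitors are in clinical use for blood cancers.

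Levels were read as FPKM, fragments scaled to exon length and library size, and tested on the log2(FPKM + 0.5) scale for the 12960 genes whose mean was 0.5 FPKM or more. 42 of the 46 proteasome genes reached that level. PSMA2, PSMA6, PSMD9 and PSMB11 did not and have no test. The 6 libraries held 17500320 to 18193372 reads, rebuilt from the deposited values, and 83587 to 91429 of these, or 0.473 to 0.514%, fell on the 46 genes. Over the 6 libraries the tested genes had between 897 and 53854 reads each, with a median of 11182. All 7 Kasumi-1 markers were present at 3.69 FPKM or more. Besides EPCAM, 9 of 16 listed markers of other cell types were analysed, and 8 of these had a mean under 0.5 FPKM. The remaining one was the B cell marker CD79A, at 0.897 to 1.90 FPKM. The summed level of the 9 was 1.66 to 2.17 FPKM in control and 1.34 to 2.51 in I3 libraries. EPCAM, an epithelial marker, was at 28.2 to 31.6 FPKM in every library. These are bulk samples, in which fewer cells of a type and less RNA per cell cannot be told apart.

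The 4 proteasome genes with most of their coding sequence shared with a second annotated gene are described below with their levels, and stretches of them are shown first. PSMA1, PSMA2, PSMA6 and PSMD9 each have most of their coding bases inside exons of another gene on the same strand in GENCODE release 29. Each stretch is coding sequence of the principal transcript, read 5′ to 3′ on the gene's strand in GRCh38, and capitals mark bases that also lie in an exon of the second gene. For PSMA1 the capitals are at chr11:14514403-14514462 on the minus strand and the lower-case bases, which only PSMA1 holds, at chr11:14513848-14513887. The PSMA2 stretch is a whole coding exon at chr7:42926536-42926668 on the minus strand. For PSMA6 the lower-case bases are at chr14:35292513-35292552 and the capitals at chr14:35307994-35308053 on the plus strand. For PSMD9 the capitals are at chr12:121894782-121894841 and the lower-case bases at chr12:121899634-121899673 on the plus strand.
PSMA1: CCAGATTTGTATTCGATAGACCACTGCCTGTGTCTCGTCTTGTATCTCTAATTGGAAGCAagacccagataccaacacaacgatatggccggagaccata
PSMA2: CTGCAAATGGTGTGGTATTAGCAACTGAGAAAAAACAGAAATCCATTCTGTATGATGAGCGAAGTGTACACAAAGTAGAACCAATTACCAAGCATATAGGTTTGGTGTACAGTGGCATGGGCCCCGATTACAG
PSMA6: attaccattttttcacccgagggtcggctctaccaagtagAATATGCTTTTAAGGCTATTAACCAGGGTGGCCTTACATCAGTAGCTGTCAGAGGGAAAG
PSMD9: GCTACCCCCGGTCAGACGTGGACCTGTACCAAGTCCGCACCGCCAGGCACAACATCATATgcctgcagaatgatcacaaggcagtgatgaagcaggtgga

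PSMA2 has no lower-case base, since all 702 coding bases of its principal transcript are shared, against 718 of 789 in PSMA1, 662 of 738 in PSMA6 and 457 of 669 in PSMD9.

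No difference between I3 and control libraries was detectable for any proteasome gene. With an adjusted p under 0.05 and a log2 fold change past 0.58 required, 0 of 42 genes were called higher and 0 lower by limma, as were 0.0% and 0.0% of all 12960 genes. The study, with DESeq at these cut-offs, reported both lowered and raised genes in these cells, whereas this fit on FPKM called none. Why the methods differ was not tested. At an unadjusted p under 0.05 the count was again 0 of 42, while 2.08% of all genes were higher and 2.85% lower (4.93% together). The I3 and control libraries overlapped for each of the 42 genes, whereas they did not overlap for 9.7% of all genes (5.06% with I3 all above and 4.64% with I3 all below). The smallest unadjusted p among the proteasome genes was 0.207, for PSMG1, and their smallest adjusted p by limma was 0.998.

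For each of the 42 tested genes the data bounded the size of a difference, as far as the spread between these libraries measures it. The 42 log2 fold changes ranged from -0.12 for PSMA1 to 0.10 for PSMD12, a fold of 0.919 to 1.07, with standard errors between 0.0490 and 0.141. The 95% intervals together spanned -0.38 to 0.38, or a fold of 0.769 to 1.30, so all 42 intervals lay inside the threshold of 0.58 in both directions, against 81.6% of all tested genes, and all 42 fold changes themselves did, against 97.2% of all tested genes. Members have high levels (median 24.2 FPKM against 5.24 for all tested genes), and their SD between libraries of a group was 0.0899 on the log2 scale at the median, against 0.124. 23 of the 42 genes had a positive and 19 a negative fold change, or 54.8% positive, and among all tested genes 54.2% were positive. Their median log2 fold change was 0.0036, with quartiles at -0.047 and 0.034, against a median of 0.011 for all tested genes. The summed level of all 46 genes was 1424, 1584 and 1542 FPKM in control libraries 1 to 3 and 1482, 1547 and 1466 FPKM in I3 libraries 1 to 3 (1517 ± 83.0 and 1498 ± 43.3 FPKM, SD, n = 3 each), so all I3 sums lay within the range of the control sums.

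**Figure D1:**
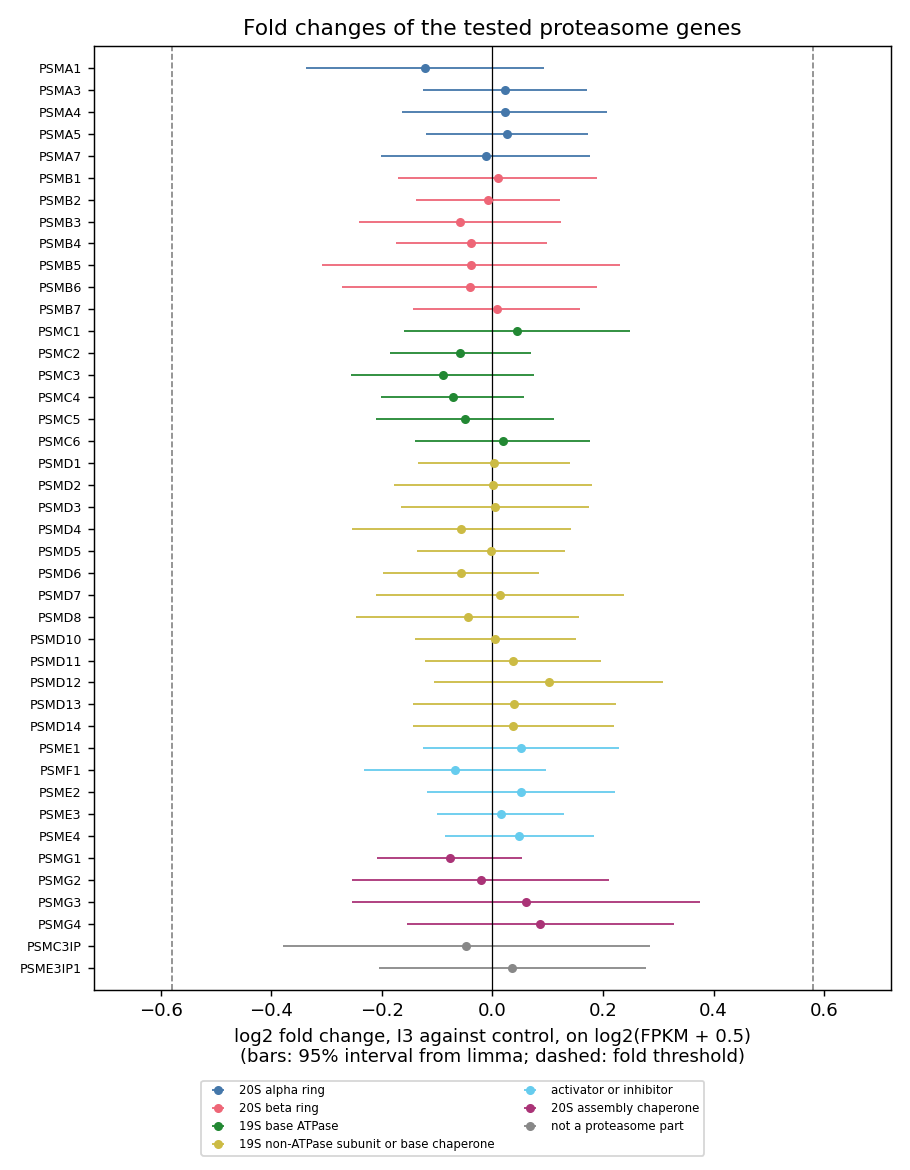
Log2 fold change of each of the 42 tested proteasome genes, I3 against control, on the log2(FPKM + 0.5) scale, with its 95% interval from limma, coloured by class. Every interval covers 0 and lies inside the dashed lines at the threshold of 0.58 in either direction.

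The proteolytic sites of the core lie in 3 beta subunits. PSMB5 (ENSG00000100804), the chymotrypsin-like subunit and main target of bortezomib, had 53.3, 70.3 and 67.1 FPKM in control libraries 1 to 3 and 58.5, 68.1 and 58.2 FPKM in the I3 libraries. Control library 1 was the lowest and control library 2 the highest, with all I3 values between them. The log2 fold change was -0.039 ± 0.115 (SE). PSMB6 (ENSG00000142507), the caspase-like subunit, had 29.2, 32.9 and 31.9 FPKM in control and 29.6, 35.0 and 27.1 FPKM in I3 libraries, with a log2 fold change of -0.041 ± 0.0984. Here I3 library 2 was the highest and I3 library 3 the lowest, so the treated libraries enclosed the controls. PSMB7 (ENSG00000136930), the trypsin-like subunit, had 81.5, 93.1 and 92.2 FPKM in control and 91.5, 89.3 and 87.0 FPKM in I3 libraries (log2 fold change 0.0081 ± 0.0643). On the FPKM scale PSMB6 was lower than PSMB5 and PSMB7 in each of the 6 libraries.

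PSMB1, PSMB2, PSMB3 and PSMB4 build the ring and have no proteolytic activity. PSMB3 (ENSG00000277791) had the highest FPKM of the class, with 92.1, 109 and 111 in control and 101, 101 and 97.3 in I3 libraries (log2 fold change -0.058 ± 0.0779). Control library 1 again had the lowest value. PSMB1, PSMB2 and PSMB4 had log2 fold changes of 0.010, -0.0082 and -0.038. PSMB11 (ENSG00000222028), the catalytic subunit of the thymus form of the proteasome, was listed at 0 in 5 libraries and at 0.0542 FPKM in control library 3, which came from 2 reads. The summed beta ring level was 490 ± 37.9 FPKM in control and 481 ± 18.3 FPKM in I3 libraries (SD, n = 3 each), and 2 of 7 tested genes had a positive fold change.

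The alpha ring forms the gated entry of the core. PSMA7 (ENSG00000101182) had the highest FPKM of all proteasome genes, at 109, 129 and 127 in control and 122, 126 and 112 in I3 libraries. The lowest and highest values were both controls, and the log2 fold change was -0.012 ± 0.0806. PSMA3, PSMA4 and PSMA5 had log2 fold changes of 0.022, 0.022 and 0.027. PSMA1 (ENSG00000129084) had the most negative fold change of the set. It had 2.92, 2.59 and 3.10 FPKM in control and 2.47, 2.62 and 2.68 FPKM in I3 libraries, 961 reads in all. Control library 2 lay among the I3 values, and the log2 fold change of -0.12 ± 0.0918 did not pass the test (unadjusted p = 0.224, adjusted p = 0.998 by limma). The summed alpha ring level was 198 ± 8.96 FPKM in control and 197 ± 6.11 FPKM in I3 libraries.

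**Figure D2:**
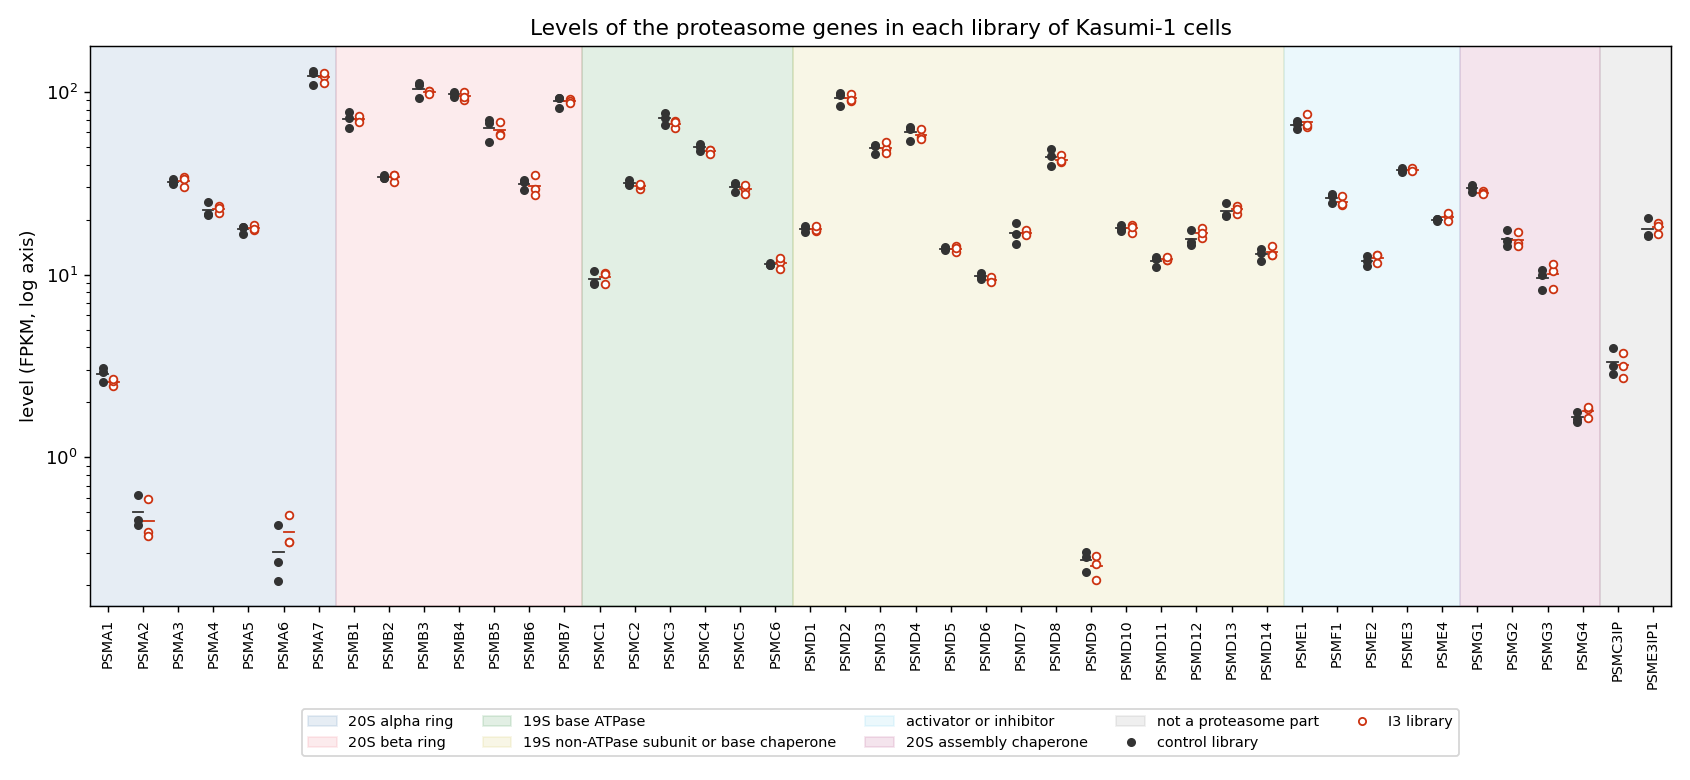
Level of each proteasome gene except PSMB11 in FPKM on a log axis, with 1 point per library (filled, 3 control; open, 3 I3) and a line at each group's mean, shaded by class. Control and I3 points overlap for every gene, and PSMA1, PSMA2, PSMA6, PSMD9 and PSMG4 lie below the other subunit genes.

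The 6 ATPases of the 19S base unfold the substrate. PSMC3 (ENSG00000165916), the highest of them, had 65.7, 76.5 and 72.3 FPKM in control and 63.5, 69.7 and 68.0 FPKM in I3 libraries. The log2 fold change was -0.090 ± 0.0705, and control library 1 lay among the I3 values. PSMC4 (ENSG00000013275) had 47.3, 51.9 and 49.7 FPKM in control and 48.0, 47.8 and 45.7 FPKM in I3 libraries (log2 fold change -0.072 ± 0.0550), with control library 1 again between I3 values. PSMC2 (ENSG00000161057) had 30.8, 33.0 and 31.3 FPKM in control and 29.4, 30.8 and 31.1 FPKM in I3 libraries (-0.058 ± 0.0541). PSMC1 (ENSG00000100764), the lowest ATPase gene, had 10.4, 8.88 and 8.98 FPKM in control and 10.2, 8.92 and 10.1 FPKM in I3 libraries (0.045 ± 0.0873). In PSMC1 control library 1 was the highest of the 6, unlike in PSMC3 and PSMC4. PSMC1 is also the gene with most opposite-strand overlap, with 75.8% of its exon bases inside exons of another gene on either strand. The kit was stranded, but no source used here says whether strand entered the counting. The class had 4 of 6 negative fold changes, a median of -0.054 and a sum of 204 ± 9.60 FPKM in control against 195 ± 3.41 FPKM in I3 libraries.

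The non-ATPase subunits bind and deubiquitylate the substrate and hold the particle together. PSMD2 (ENSG00000175166), the large base subunit that docks ubiquitin shuttle factors, was the highest at 83.2, 98.8 and 95.7 FPKM in control and 89.3, 97.3 and 90.8 FPKM in I3 libraries (log2 fold change 0.00081 ± 0.0760). It had the most reads of the set, and its lowest and highest values were both controls. PSMD14 (ENSG00000115233), the metalloprotease that removes ubiquitin chains, had 13.8, 13.1 and 11.9 FPKM in control and 12.8, 12.8 and 14.3 FPKM in I3 libraries (0.038 ± 0.0775). PSMD12 (ENSG00000197170), a subunit of the lid, had the most positive fold change of the set. Its levels were 17.6, 15.2 and 14.4 FPKM in control and 17.9, 15.8 and 16.9 FPKM in I3 libraries (0.10 ± 0.0881, unadjusted p = 0.286, adjusted p = 0.998 by limma). Control library 1 lay above 2 of the I3 libraries. The other 10 tested genes of the class, among them the ubiquitin receptor PSMD4 at -0.056 and the scaffold subunit PSMD1 at 0.0030, lay between -0.057 (PSMD6) and 0.040 (PSMD13). PSMD5 and PSMD10, chaperones of base assembly, had log2 fold changes of -0.0032 and 0.0050.

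Activators open the gate of the core in place of the 19S particle, and PSMF1 is known as an inhibitor of the core in vitro. PSME1 (ENSG00000092010), a subunit of the interferon-inducible activator, had 62.9, 69.1 and 66.5 FPKM in control and 64.2, 75.9 and 66.2 FPKM in I3 libraries (log2 fold change 0.052 ± 0.0753). Its partner PSME2 (ENSG00000100911) had 11.2, 12.6 and 11.9 FPKM in control and 12.8, 12.7 and 11.5 FPKM in I3 libraries (0.052 ± 0.0725). The highest value of each pair partner was in an I3 library, and I3 library 3 fell among the controls in both. PSME4 (ENSG00000068878), the nuclear activator PA200, had 19.7, 20.05 and 20.2 FPKM in control and 20.9, 19.6 and 21.7 FPKM in I3 libraries (0.049 ± 0.0574). PSME3 and PSMF1 had log2 fold changes of 0.015 and -0.068. 4 of the 5 genes had positive fold changes, with a median of 0.049, and the sum was 162 ± 6.49 FPKM in control and 164 ± 7.76 FPKM in I3 libraries.

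PSMG1 to PSMG4 are chaperones that assemble the alpha ring. PSMG1 (ENSG00000183527) had 31.0, 29.8 and 28.3 FPKM in control and 28.8, 28.0 and 27.5 FPKM in I3 libraries. Control library 3 lay between I3 values, and the log2 fold change of -0.077 ± 0.0557 carried the smallest unadjusted p of the set (0.207, adjusted p = 0.998 by limma). PSMG4 (ENSG00000180822), the lowest chaperone gene, had 1.57, 1.76 and 1.63 FPKM in control and 1.84, 1.89 and 1.64 FPKM in I3 libraries (0.087 ± 0.103). PSMG2, the partner of PSMG1, and PSMG3 had log2 fold changes of -0.021 and 0.060. Outside the proteasome, PSMC3IP (ENSG00000131470) had 2.86, 3.95 and 3.18 FPKM in control and 3.73, 3.17 and 2.71 FPKM in I3 libraries (-0.047 ± 0.141) and the widest interval of all. PSME3IP1 had a log2 fold change of 0.036 ± 0.103.

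Libraries of 1 group differed from each other, and the deviations of the proteasome genes rose or fell with their GC content in both groups, least in I3 library 1. Each gene's value in a library was taken as its log2 deviation from the mean of the 6 libraries. In control library 1, 11 of 42 genes (26.2%) lay above their own mean, against 54.2% of all tested genes. In control library 2 the count was 31 of 42 (73.8%, against 48.8% of all tested genes). The other 4 libraries had 23 (control 3) and 19, 24 and 16 (I3 1 to 3) of 42. Of the 19 genes with a GC content of at least 50%, 0 lay above their mean in control library 1, 19 in control library 2 and 13 in control library 3. The counts were 6, 16 and 1 of 19 in I3 libraries 1 to 3, so libraries of both groups stood at each end. Of the 15 genes under 45% GC, 8, 6 and 7 lay above their mean in the control and 8, 3 and 11 in the I3 libraries.

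Across the 42 genes, Spearman's rho between GC content and deviation was -0.62, 0.60 and 0.47 in control libraries 1 to 3 and -0.23, 0.68 and -0.74 in I3 libraries 1 to 3. Across 12939 tested genes with a GC value, rho had the same sign in each library, at -0.31, 0.45, 0.34, -0.23, 0.26 and -0.45. These are descriptions across genes that share a library, and genes are not independent replicates. The median deviation of the 19 GC-rich proteasome genes ran from -0.10 in control library 1 to 0.097 in control library 2. PSMB5, PSMD2, PSMB3 and PSMC3, all with over 50% GC, had their lowest control value in library 1. Genes with less GC went both ways. PSMD12 (40.9% GC) and PSMC1 (46.5% GC) had their highest control value there. PSMA5 (43.2% GC), PSMC2 (42.0% GC) and PSME4 (41.5% GC) had their lowest control value there. The part of GC content in any difference between single libraries was not tested. After a GC correction of every library the median log2 fold change of the 42 genes was -0.031, against 0.0015 for all tested genes. The number called stayed 0.

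**Figure D3:**
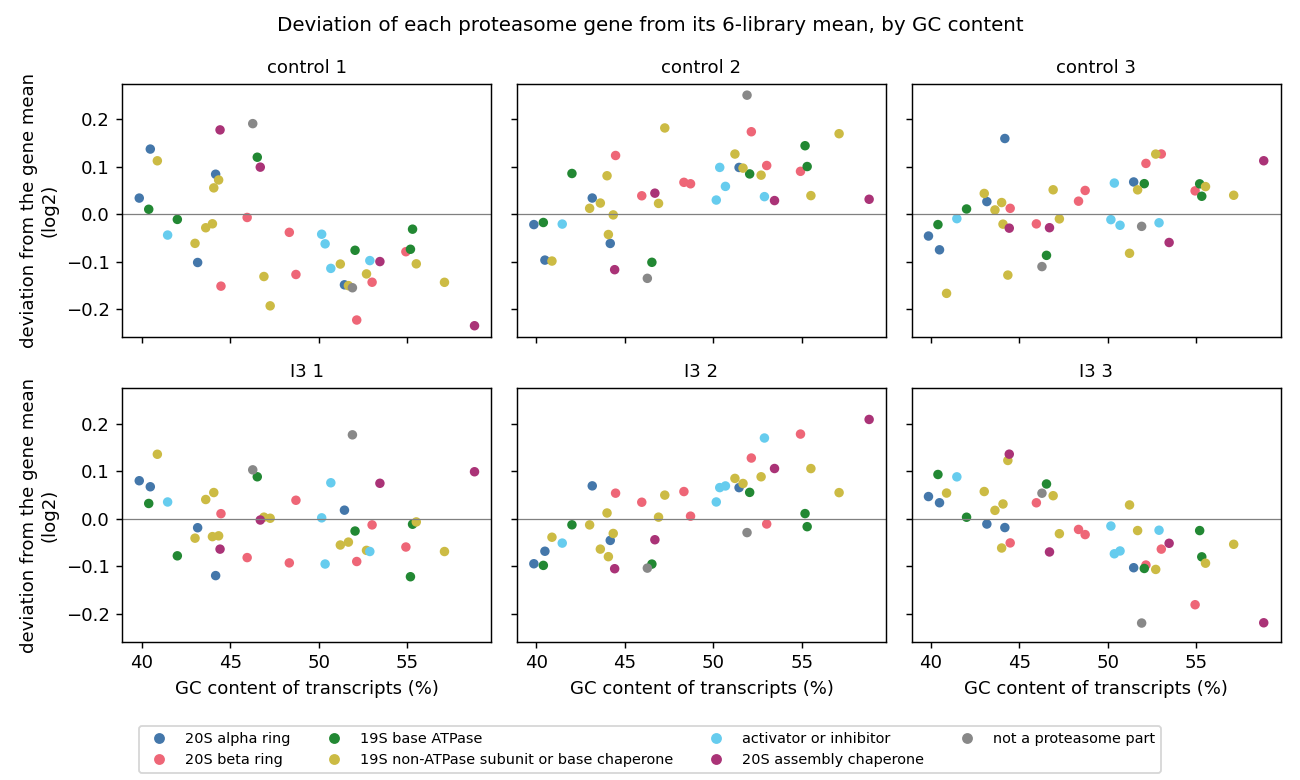
Deviation of each of the 42 tested proteasome genes from its 6-library mean, in log2 units, against the GC content of its transcripts in percent, with 1 panel per library and colours by class. The points fall with GC in control 1 (rho -0.62) and I3 3 (-0.74) and rise with GC in control 2 (0.60) and I3 2 (0.68).

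The levels of the proteasome genes differed among themselves far more than between groups. PSMA1, PSMA2, PSMA6 and PSMD9, whose sequences are shown above, had means of 2.73, 0.476, 0.346 and 0.265 FPKM over the 6 libraries. The other 39 proteasome genes, without PSMB11, had means of 1.72 to 121 FPKM with a median of 28.9. PSMA2 (ENSG00000106588) had 0.456, 0.621 and 0.428 FPKM in control and 0.589, 0.390 and 0.371 FPKM in I3 libraries, from 271 reads in all. PSMA6 (ENSG00000100902) had 0.426, 0.268 and 0.211 FPKM in control and 0.345, 0.346 and 0.482 FPKM in I3 libraries, from 241 reads. PSMD9 (ENSG00000110801), a base chaperone, had 0.303, 0.237 and 0.287 FPKM in control and 0.262, 0.288 and 0.213 FPKM in I3 libraries, from 248 reads. The groups overlapped for all of them, and each was low in every library. PSMA2 and PSMA6 are single-copy parts of the alpha ring, in which each subunit is present in equal number and their levels lay below those of their ring partners PSMA3, PSMA4, PSMA5 and PSMA7, at 17.9 to 121 FPKM.

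These 4 genes were the ones with over 50% of coding bases in exons of another gene on the same strand, at 88.6% (PSMA1), 97.1% (PSMA2), 70.4% (PSMA6) and 58.7% (PSMD9) over all their coding bases. Of the other 42 genes, 40 shared none, and PSMF1 (14.2%) and PSME2 (0.125%) shared little. Over all protein-coding genes the median was 3.25 FPKM for 13939 genes with no shared coding base, 2.16 FPKM for 928 with up to 50% and 0.265 FPKM for 749 above 50%. The second genes themselves had next to no reads: over the 6 libraries ENSG00000256646 (PSMA2) had 2, ENSG00000258790 (PSMA6) 1 and ENSG00000256950 (PSMD9) 3, while ENSG00000256206, the partner of PSMA1, was not analysed here. HTSeq is among the tools in the submitters' processing notes, and its usual setting leaves a read that lies in exons of several genes uncounted. No source used here gives the setting or the annotation release, and the part of shared sequence in these levels was not tested. The levels of these 4 genes are therefore uncertain. Annotated pseudogenes had few reads beside their parents, with a median of 0.253% over 16 pseudogene rows of 9 parents, except PSMA6P1 with 146 reads, 60.6% of the count of PSMA6.

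**Figure D4:**
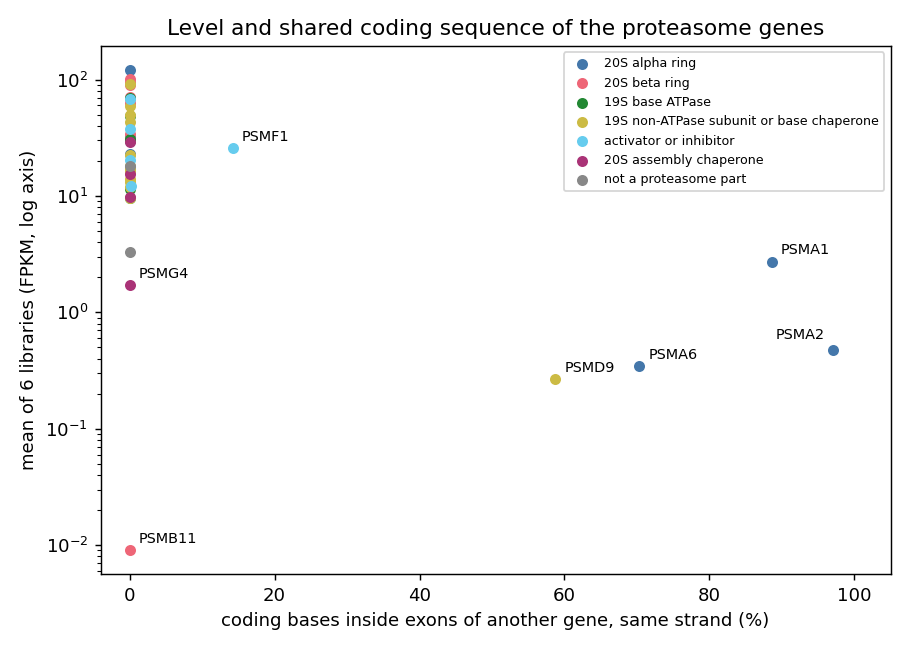
Mean level over 6 libraries in FPKM on a log axis against the percent of a gene's coding bases that lie in exons of another gene on the same strand, 1 point per proteasome gene, coloured by class. The 4 genes above 50% (PSMA1, PSMA2, PSMA6 and PSMD9) lie at 0.265 to 2.73 FPKM, and PSMB11 and PSMG4 are the low genes with no shared base.

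The order of levels also depended on the length used. FPKM divides by all annotated exon bases of a gene, which were 1.73 to 28.2 times (median 3.80) the coding length of its principal transcript, with the highest ratio in PSMG4. Among the 14 constitutive 20S genes, whose proteins are present in equal number in the core, the highest FPKM (PSMA7) was 350 times the lowest (PSMA6). With all reads of a gene taken per kilobase of its coding sequence the ratio was 93.0, and PSMA7, PSMB2 and PSMB4 led. This scale also counts reads outside the coding sequence, which can raise genes whose exons are long beside it. It is therefore not the read coverage of the coding sequence. PSMB2 (34.2 FPKM, with exons 8.03 times its coding length) was the one next to PSMA7 on this scale at 4882 reads per kilobase per library. Without PSMA1, PSMA2 and PSMA6 the ratio over the remaining 11 genes was 6.77 by FPKM and 4.56 per kilobase of coding sequence. PSMB6 was then the lowest on the coding scale at 1111 reads per kilobase, while PSMA5 was the lowest by FPKM.

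**Figure D5:**
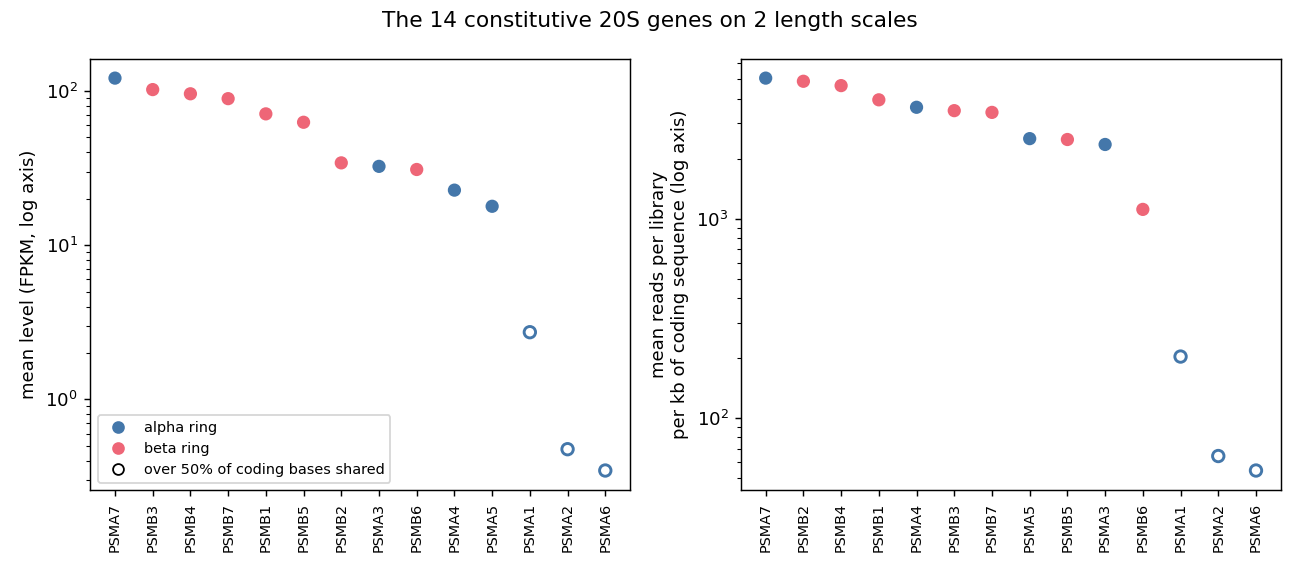
The 14 constitutive 20S genes in falling order of mean FPKM (left) and of mean reads per library per kilobase of coding sequence (right), both on log axes, alpha ring in blue and beta ring in red, open points for genes with over 50% of coding bases shared. The right scale counts all reads of a gene, also those outside its coding sequence. The order of the filled points differs between the scales, and PSMA1, PSMA2 and PSMA6 come last on both.

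Other genes of the pathway were taken from a list of 33, of which 32 were tested. At an unadjusted p under 0.05 by limma 0 of 32 were past the threshold, against 4.93% of all tested genes. Their log2 fold changes ran from -0.14 (RAD23B, a ubiquitin shuttle factor) to 0.11 (DDI2), 14 positive and 18 negative, with a median of -0.0050. DDI2, the protease that activates NFE2L1, was one of 2 listed genes of 32 whose groups did not overlap (9.7% of all tested genes did not), with 7.60, 7.50 and 7.66 FPKM in control and 8.28, 8.25 and 8.16 FPKM in I3 libraries (log2 fold change 0.11 ± 0.0562, unadjusted p = 0.0883, adjusted p = 0.998 by limma). The other was ZFAND5, an activator of the 26S proteasome, with 20.5, 18.999 and 18.5 FPKM in control and 18.2, 17.8 and 17.5 FPKM in I3 libraries (-0.11 ± 0.0588, unadjusted p = 0.0975). NFE2L1 itself had 38.3, 43.5 and 43.5 FPKM in control and 41.0, 44.1 and 41.0 FPKM in I3 libraries (0.011 ± 0.0689). Among the immunoproteasome subunits, which replace the catalytic ones after interferon, PSMB8 had 3.70, 2.55 and 2.45 FPKM in control and 2.83, 2.86 and 2.88 FPKM in I3 libraries. PSMB10 had 6.23, 6.67 and 5.89 FPKM in control and 7.45, 7.19 and 4.78 FPKM in I3 libraries, and PSMB9 lay between 0.0179 and 0.129 FPKM. On the FPKM scale each was below its constitutive counterpart (PSMB5, PSMB6 and PSMB7 for PSMB8, PSMB9 and PSMB10) in every library. POMP, the maturation factor of the core, the ubiquitin receptor ADRM1 and the small lid subunit SEM1 had log2 fold changes of -0.051, -0.12 and -0.064 with standard errors of 0.0828, 0.0873 and 0.112.

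Promoters were searched because the proteasome genes are known to share control elements. Windows of 300 bases from RefSeq (GRCh38.p14), 250 before to 50 after a gene's start, were found for 40 of the 46 genes and searched on both strands, counting a gene once. Some genes have several windows, and a match in any of them counted. Genes with more windows therefore had more chances to match, and the shares below were not adjusted for this. The antioxidant response element core TGACNNNGC, the motif that NFE2L1 binds with small MAF proteins, was in 14 of 40 (35.0%), against 16.1% of 27305 genes. CGGAAG, the ETS core, was in 25 of 40 (62.5%) against 22.6%, the NF-Y box CCAAT in 21 (52.5%) against 39.7%, and GCGCATGCG, the core of the nuclear respiratory factor motif, in 1 (2.5%) against 2.34%. The 40 genes include PSMC3IP and PSME3IP1, which matched both the ETS core and the NF-Y box. The 27305 genes are all those with a promoter window, whether expressed here or not. A match is a description of the letters, and none of these motifs was tested for binding here. Among the 14 genes with TGACNNNGC, PSMB3 and PSMD12 are shown as the gene with the highest FPKM and the one with the most positive fold change, with the match in capitals. The PSMB3 window is chr17:38752491-38752790 on the plus strand, and the PSMD12 window is chr17:67366528-67366827 on the minus strand, both with the match before the gene's start.
PSMB3: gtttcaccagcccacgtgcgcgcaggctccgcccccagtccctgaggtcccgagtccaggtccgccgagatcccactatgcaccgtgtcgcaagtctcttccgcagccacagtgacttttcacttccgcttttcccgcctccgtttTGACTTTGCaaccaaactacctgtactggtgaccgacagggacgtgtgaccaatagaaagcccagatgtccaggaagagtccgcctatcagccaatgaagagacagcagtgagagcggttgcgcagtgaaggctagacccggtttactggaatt
PSMD12: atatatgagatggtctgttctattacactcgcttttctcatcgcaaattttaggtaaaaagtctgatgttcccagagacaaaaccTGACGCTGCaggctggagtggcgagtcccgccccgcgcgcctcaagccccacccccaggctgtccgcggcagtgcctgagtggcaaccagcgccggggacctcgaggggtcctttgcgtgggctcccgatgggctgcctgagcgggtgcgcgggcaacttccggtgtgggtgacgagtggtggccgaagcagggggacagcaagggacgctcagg

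PSMB3 and PSMD12 had log2 fold changes of opposite sign, -0.058 and 0.10, and neither passed the test.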

How the data were processed

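The labels and the study's methods describe stranded libraries of polyadenylated RNA from Trizol extracts. The submitters' processing notes name Trimmomatic, HISAT2, Cufflinks, HTSeq and hg38, without versions, and the authors tested with DESeq. The authors deposited FPKM values, 1 column per library, with 0 other value columns. The name of the deposited table gives the compound as I13, and the labels as I3.

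Of 29810 gene identifiers, 29703 were in GENCODE 29 and 29507 had a symbol. Reads were rebuilt as FPKM times the union exon length. Of the genes above 0 with a length, 95.8% came out whole within 0.1 read, and 90 of 26609 genes above 0 had no length. Depth was 17500320 to 17798678 reads in control and 17794814 to 18193372 in I3 libraries, so counting error limits mainly genes with few reads. Within each group no libraries were copies of each other, and pairs across groups were not compared in this way.

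Groups were compared with limma 3.58.1 (R 4.3.3; linear fit, moderated with a mean-variance trend, two-sided) on log2(FPKM + 0.5). Genes whose mean was 0.5 FPKM or more entered, with Benjamini-Hochberg adjustment over all of them. Fold changes understate changes of low genes on this scale. On simulated data with 12960 genes this fit called 91% of genes changed by a log2 fold change of 1. The share was not obtained for smaller changes, so it does not measure the power at the fold threshold or below it. GC content is the median over a gene's transcripts. Coding overlap was taken from GENCODE 29 and promoters from RefSeq GRCh38.p14. The alternatives were other pseudocounts, minimum levels, scalings, a replicate block, leaving out each library, voom on rebuilt reads and a GC correction (lowess span 0.3).

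The members and lists were chosen with earlier results of these data known. Values by library are given for the catalytic subunits, PSMB11, PSMD14 and PSMC3IP, for the highest and lowest member of each class by mean FPKM, and for the 5 smallest p in each direction. Other values for single genes were chosen after they were seen. These include PSMA2, shown for its shared sequence.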

Additional observations from a re-analysis of the deposited data

How the results depend on the processing

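No member passed the adjusted threshold under any alternative, and all tested members kept their interval inside the fold threshold except 3 each after TPM scaling (42 of 45) and with voom (42 of 45). Leaving out each library in turn gave 0 to 1 members higher and 0 to 2 lower at an unadjusted p, 0 to 3 with I3 all above and 1 to 8 with I3 all below control, and a median log2 fold change of -0.045 to 0.016. In the same runs 461 to 1417 of all tested genes passed the unadjusted p, and 16.1 to 31.0% did not overlap. Without control replicate 1, PSMD12 was higher and PSMB3 and PSMC3 were lower at an unadjusted p, and 3 members lay above and 8 below. The median of the members was then -0.045, against 0.017 for all tested genes. In that run 1417 of 12913 genes passed the unadjusted p and 31.0% did not overlap. The cause was not tested. Non-overlapping members also appeared with median-of-ratios scaling (1 below, PSMG1), quantile normalization (1 above, PSME3) and the GC correction (3 below, PSMG1, PSMA1 and PSMC4), of 42 members each, where 9.31%, 9.45% and 10.9% of all genes did not overlap. Signs of single genes were followed only for the tested members with values by library, and other members may also have turned sign. Among those followed, near-zero fold changes turned sign with median-of-ratios scaling (PSMB7 -0.0052, PSMD2 -0.012), quantile normalization (PSMA7 0.025) and the GC correction (PSME4 -0.0017, PSMB7 -0.0085, PSMD2 -0.0050). When libraries were left out one at a time, the ranges among the followed members that crossed 0 were -0.053 to 0.042 (PSMB7), -0.074 to 0.050 (PSMD2), -0.090 to 0.036 (PSMA7), -0.15 to 0.066 (PSMC3IP), -0.16 to 0.038 (PSMB5), -0.017 to 0.084 (PSMD14), -0.020 to 0.099 (PSME1) and -0.14 to 0.039 (PSMB6). The ratio of highest to lowest 20S level, 350 by FPKM, was 93.0 per kilobase of coding sequence and 6.77 without the genes with most coding bases shared, both chosen after seeing the data, as was the median without PSMC3IP and PSME3IP1. voom gave no summed FPKM. Replicate numbers did not clearly pair the libraries (correlations 0.063, 0.15 and -0.024). Control 1 correlated best with I3 3 and control 3 with I3 2, while control 2 correlated best with I3 2, its own number. With the replicate block 0 members passed the unadjusted p, the smallest member p was 0.0819 (limma, unadjusted), and the share of all genes past it moved from 4.93% to 6.6%.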
